A study of Mus musculus with 80 samples.

Results

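Kit transcript positive cells were set against Kit transcript negative cells among 71 single germ cells of the neonatal mouse testis. A cell was called Kit positive at an estimated Kit count of at least 5 and Kit negative below 0.5. This gave 19 Kit positive and 26 Kit negative cells, 45 of the 71, and left 26 cells in between. Kit counts chose the members, so Kit levels are given as a description and Kit was left out of every comparison.

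The series followed germ cell differentiation by RNA sequencing of 80 samples. Its 71 single cells came from testes at postnatal day 5.5. That age is the one in the sample labels, while the column names of the count table say P6 for the same cells. Kit positive and Kit negative cells shared every label. They came from male mice of the strain B6;CBA-Tg(Pou5f1-EGFP)2Mnn/J, in which regulatory sequence of Pou5f1 (Oct4) drives EGFP, a green fluorescent protein. They were sorted as Oct4-GFP positive and negative for the KIT protein, isolated one by one in the Fluidigm C1 system and made into Nextera XT libraries. The gate was meant to leave out cells with KIT on their surface, and how fully it did so is not known here. Kit positive refers here to the transcript alone. No animal was named for any cell, so each Kit group counts as 1 sample and no difference below carries a p-value. Differences are described by the spread over cells.

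KIT is the receptor tyrosine kinase for KIT ligand (Kitl), which Sertoli cells make. In the mouse testis it marks differentiating spermatogonia, which need it to survive and divide, while the stem cells and early progenitors carry little KIT protein. Retinoic acid starts this transition and also induces Stra8. The RNA-binding protein NANOS2, the transcription factor PLZF (Zbtb16) and small RNAs are known to hold Kit back in mouse spermatogonia. SOHLH1 and SOHLH2 are known to favour its expression. Why Kit transcript was found in cells sorted as KIT negative was not tested.

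The promoters of Kit and Stra8 are shown because both genes are tied to retinoic acid and to the same step of differentiation. They run from 250 bases before to 50 after the RefSeq start on build GRCm38.p6, while the count table was made on mm9. Kit lies at chr5:75574737-75575036 and Stra8 at chr6:34920698-34920997, both on the plus strand. Capitals mark the retinoic acid response half-site AGGTCA, searched on both strands, and the E-box CANNTG, whose pattern reads the same on both.
Kit: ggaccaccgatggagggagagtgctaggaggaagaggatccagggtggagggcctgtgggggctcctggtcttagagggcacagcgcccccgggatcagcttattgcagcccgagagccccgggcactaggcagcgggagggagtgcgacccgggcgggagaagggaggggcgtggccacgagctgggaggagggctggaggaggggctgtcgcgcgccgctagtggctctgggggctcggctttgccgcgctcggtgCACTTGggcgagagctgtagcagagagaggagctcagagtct
Stra8: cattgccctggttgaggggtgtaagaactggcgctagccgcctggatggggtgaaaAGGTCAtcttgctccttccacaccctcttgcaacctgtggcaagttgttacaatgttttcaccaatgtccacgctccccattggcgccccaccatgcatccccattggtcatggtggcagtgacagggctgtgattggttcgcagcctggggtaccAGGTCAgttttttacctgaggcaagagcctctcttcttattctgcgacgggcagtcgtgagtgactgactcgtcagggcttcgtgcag
The Stra8 window held 2 half-sites and 0 E-boxes, and the Kit window held 0 half-sites and 1 E-box. Among 27025 promoter windows of 300 bases, 16.04% held a half-site, 1.739% held 2 or more and 72.15% held an E-box. A match describes the letters of a window and is not a binding site, and nothing about a factor follows from a window without one.

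Kit counts spanned a wide range in the Kit positive cells. The lowest, median and highest expected count was 9.66, 121 and 525 in Kit positive cells. In Kit negative cells 21 of 26 cells stood at exactly 0 and the highest estimate was 1.41e-41. In CPM, the count scaled to one fixed total per cell, Kit positive cells had 2.43, 102 and 302. Cells in between had 0.939, 1.92 and 4.85 counts, and 10 of them lay within 0.1 of 1 count. In CPM they had 0.417, 1.11 and 6.50, so on that scale they overlapped the Kit positive cells. The lowest Kit positive value, 2.43 CPM, came from the deepest cell, with 6820422 counts in total. The member just inside the threshold had 9.66 counts and the cell just outside it 4.85. Expected counts of at least 100 were reached by 10 of the 19 Kit positive cells, so the group joins cells of high and of low Kit.

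Kit positive cells were somewhat deeper at the median, with wide overlap. Total expected counts per cell ran from 754677 to 6820422 (median 1745790) in Kit positive cells, against 182584 to 2755595 (median 1388696) in Kit negative cells. Genes with an expected count of at least 1, called detected below, numbered 9084 to 13514 (median 10892) in Kit positive and 6970 to 11257 (median 10360) in Kit negative cells. The 19 Kit positive cells summed to 40107990 counts and the 26 Kit negative cells to 38209496. Across the 71 cells, Kit CPM had a Spearman coefficient of 0.145 with the total and 0.161 with genes detected, given as a description.

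**Figure D1:**
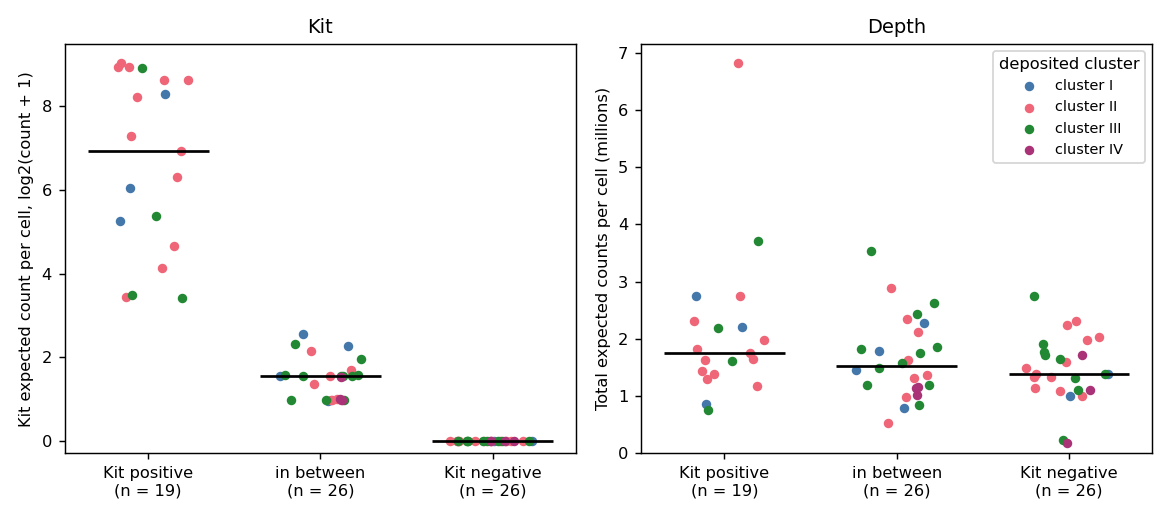
Left, Kit expected count per cell as log2(count + 1). Right, total expected counts per cell, with the unit on the axis. Points are cells coloured by deposited cluster, and lines are group medians. Kit positive cells spread from 9.66 to 525 Kit counts, while the depth of the groups overlaps except at the ends. Kit positive cells at 3709569 and 6820422 counts lie above every cell of the other groups. Kit negative cells at 182584 and 226095 counts lie below every cell of the other groups.

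Kit positive cells occurred in 3 of the 4 clusters that the authors deposited with the counts, clusters I to IV. Cluster II held 12 of 19 Kit positive cells (63.2%, exact Clopper-Pearson 95% interval 38.4% to 83.7%) and 12 of 26 Kit negative cells (46.2%, 26.6% to 66.6%). Cluster III held 4 Kit positive cells (21.1%, 6.05% to 45.6%) and 9 Kit negative cells (34.6%, 17.2% to 55.7%). Cluster IV held 0 Kit positive cells (0% to 17.6%) and 3 Kit negative cells (11.5%, 2.45% to 30.2%), and its highest Kit level was 1.87 CPM. Cluster I held 3 Kit positive and 2 Kit negative cells. The intervals cover counting error only and overlap for clusters II, III and IV, and the clustering may itself have used Kit. The deposited count table also carries a position code for each cell, in a row apart from the column names. Codes starting with D to H took 14 of the 19 Kit positive and 16 of the 26 Kit negative cells. All 10 cells with at least 100 Kit counts were among the 46 cells with codes D to H, and 0 were among the 25 with codes A to C. What the codes stand for is not given in the labels, and their part in the results was not tested.

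Away from Kit, the groups overlapped at every gene compared. Expression was summarised as log2(CPM + 1), and a gene entered when detected in at least 25% of the 45 cells, which 12849 genes did. Of these, 686 were higher in Kit positive cells by at least 1 in mean log2(CPM + 1), 5.34% of the genes, and 299 were lower by at least 1, 2.33%. For 0 genes did the ranges of the groups lie apart. The median SD over cells was 1.59 in Kit positive and 1.69 in Kit negative cells for all genes. It was 2.28 and 2.36 for the genes higher by at least 1, so a difference of 1 was smaller than the usual spread between cells of a group. The median difference over all genes was 0.0987, with quartiles of -0.191 and 0.414. With median-of-ratios size factors in place of column totals, the median of all genes moved by -0.112 and the split came to 498 higher and 428 lower, 53.8% higher against 69.6% with column totals.

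Members of 30 gene lists for spermatogonial stages, KIT biology, cell cycle, metabolism and other testis cell types passed 1 in shares close to those of all genes. Of 393 distinct members that entered, 22 (5.6%) were higher by at least 1 and 10 (2.54%) lower, beside 5.34% and 2.33% of all genes. Their median difference was 0.0608. Shares this near the background are no result about the lists. Counts in single lists below rest on few members and are no result about a list. They are to be read beside these shares of 5.34% and 2.33%, also where those are not repeated. Medians of the 25 lists with at least 3 such members ran from -0.25 for germ cell identity to 0.55 for self-renewal. Directions of these medians were loose, since 8 of the 25 had the same sign over all cells, within cluster II and within cluster III.

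**Figure D2:**
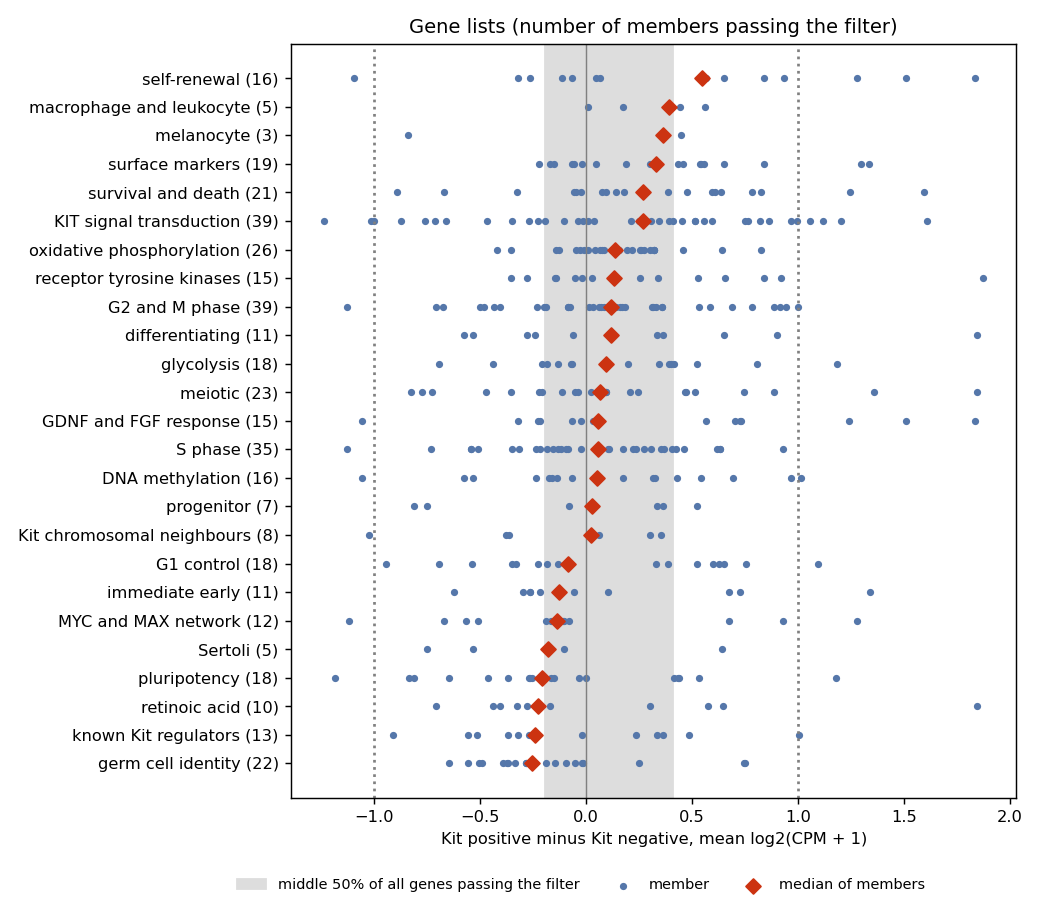
Difference in mean log2(CPM + 1), Kit positive minus Kit negative cells, for members of each gene list that were detected in at least 25% of cells. Dots are genes, diamonds are list medians, the grey band spans the quartiles of all 12849 genes (-0.191 to 0.414) and dotted lines mark differences of 1. The self-renewal median of 0.55 lies above the band, and the medians of germ cell identity, known Kit regulators, retinoic acid and pluripotency genes lie below it.

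Among markers of differentiation, Stra8, a retinoic acid induced gene needed for entry into meiosis, had the largest difference. Its lowest, median and highest level was 0, 9.25 and 448 CPM in Kit positive cells, against 0, 0.704 and 139.6 CPM in Kit negative cells. Stra8 was detected in 14 of 19 Kit positive cells (73.7%, 48.8% to 90.9%) and in 13 of 26 Kit negative cells (50%, 29.9% to 70.1%). The ranges overlapped, 2 Kit positive cells exceeded every Kit negative cell, and the mean log2 difference was 1.85. Thinned to 182571 counts each, the shallowest cell's whole-number total, 12 Kit positive and 8 Kit negative cells still showed Stra8. Summed over the group, Stra8 came to 79.8 CPM in Kit positive cells (exact Poisson 95% interval 77 to 82.6). The Kit negative sum was 8.90 CPM (7.98 to 9.90). These intervals take reads as independent and leave out amplification and the spread between cells. The SD of log2(CPM + 1) over cells was 2.75 in Kit positive and 2.05 in Kit negative cells. A single cell gave 46% of the Kit positive and 45.1% of the Kit negative sum. Within the Kit positive group, Stra8 was not highest where Kit was highest. Its median was 6.82 CPM in the 10 cells with at least 100 Kit counts and 31.3 CPM in the other 9.

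No other member of the differentiating list passed 1. Of 11 members that entered, 1, Stra8, was higher by at least 1 and 0 were lower, with a median of 0.12 that turned to -0.33 within cluster III. Next after Stra8 came Rhox13, a homeobox gene of the X chromosome listed as 1700123J19Rik, with 0, 14.9 and 55.8 CPM in Kit positive and 0, 5.28 and 46 CPM in Kit negative cells. Its difference was 0.90 over all cells, 0.92 within cluster II and -0.97 within cluster III. Sohlh1, a transcription factor of differentiating spermatogonia, had 0, 19.2 and 218 CPM in Kit positive and 0, 14.3 and 280.2 CPM in Kit negative cells (difference 0.33). Its partner Sohlh2 had 7.53, 157 and 776 CPM in Kit positive and 0.563, 115 and 539.6 CPM in Kit negative cells (difference 0.37). Cyclin D2 (Ccnd2), which drives the G1 phase and accompanies the step to differentiating spermatogonia, was detected in every cell of both groups, at a median of 1471 CPM in Kit positive and 1266 CPM in Kit negative cells. The difference for Ccnd2 was 0.65, with an SD over cells of 0.94 in Kit positive and 1.72 in Kit negative cells. The de novo DNA methyltransferases Dnmt3a and Dnmt3b, which accompany the same step, had differences of -0.57 and -0.53. Dnmt3b ran over 0, 50.8 and 264 CPM in Kit positive and 0, 28.1 and 529 CPM in Kit negative cells, so its median and its mean log2 value differed in opposite directions. All of these ranges overlapped.

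**Figure D3:**
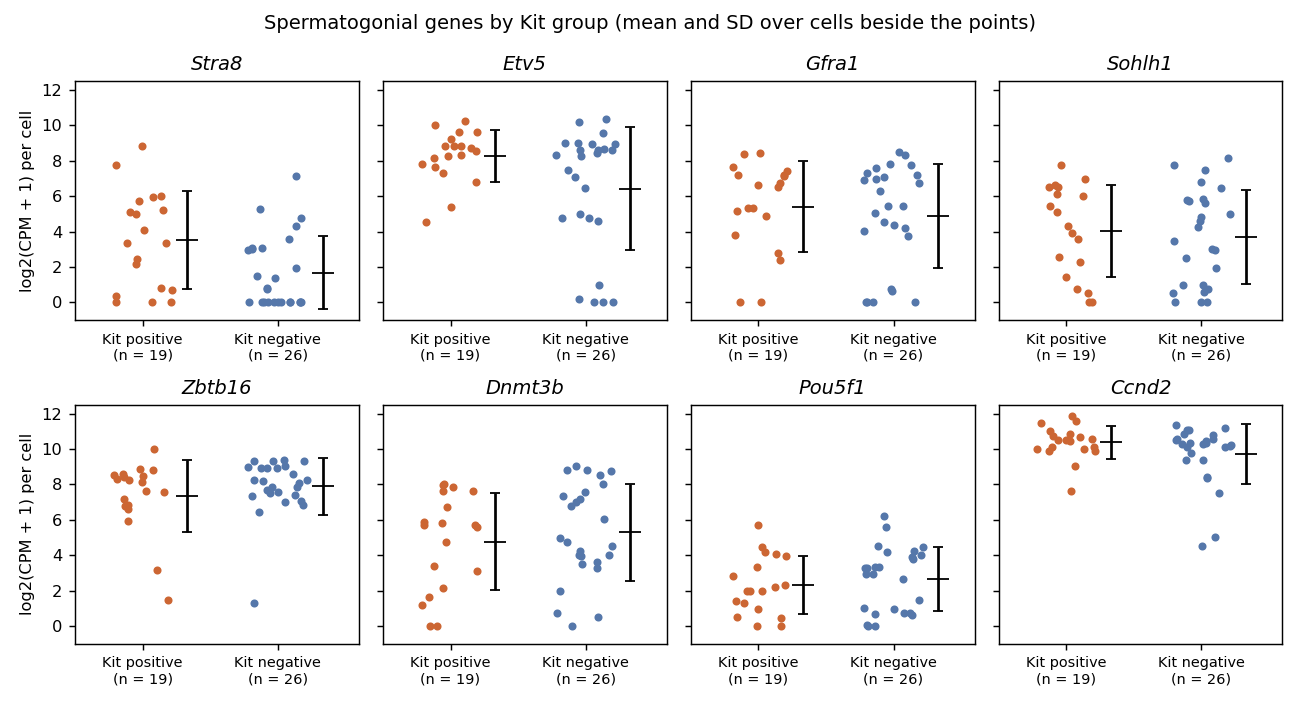
Level per cell as log2(CPM + 1) for 8 spermatogonial genes in Kit positive (n = 19) and Kit negative (n = 26) cells. Points are cells, and the bar beside them gives mean and SD over cells. Stra8 and Etv5 have the largest mean differences of the 8, 1.85 and 1.84, and every gene overlaps between the groups.

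The retinoic acid list held 10 members that entered, with 1 higher by at least 1, again Stra8, 0 lower and a median of -0.22. The median lay above 0 within cluster II (0.29), for the cells with at least 100 Kit counts (0.14), within position codes D to H (0.08) and over the 20 members with no filter on low genes (0.16), so its sign changed with the setting. Rara, a retinoic acid receptor, was detected in 17 of 19 Kit positive and 19 of 26 Kit negative cells, with medians of 6.54 CPM in Kit positive and 3.53 CPM in Kit negative cells and a difference of 0.65. The partner receptor gene Rxrb differed by -0.70. Rarg, the receptor of the retinoic acid responsive progenitors, was detected in 5 of 19 Kit positive and 6 of 26 Kit negative cells and did not reach 25% of the cells. The same held for Dmrtb1, a gatekeeper of meiotic entry, with 4 Kit positive and 6 Kit negative cells. Kitl, the ligand itself, was detected in 0 of 19 Kit positive cells (0% to 17.6%) and 4 of 26 Kit negative cells (15.4%, 4.36% to 34.9%).

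Genes of stem cell self-renewal had a median of 0.55 over 16 members, with 11 above 0, 3 higher by at least 1 and 1 lower. This was the highest list median over all cells, and it moved with the cells that entered. Without the 3 Kit negative cells of cluster IV the self-renewal median was 0.18. That lay below the medians of macrophage and leukocyte markers (0.33), melanocyte markers (0.28) and survival and death genes (0.28). It also lay narrowly below that of KIT signal transduction. Within position codes D to H the self-renewal median was 0.62. Why it moved was not tested. Etv5, a transcription factor that GDNF induces in stem cells, had 22.2, 370.1 and 1222 CPM in Kit positive cells, against 0, 316 and 1322 CPM in Kit negative cells. The Etv5 medians were close and the difference of 1.84 came with the share of low cells, since it was detected in all 19 Kit positive and in 22 of 26 Kit negative cells. Cluster IV, which has no Kit positive cell, supplied 3 of the 4 Kit negative cells without Etv5, and without that cluster the difference was 1.01. Lhx1, another GDNF-induced transcription factor, had 0, 33 and 399.7 CPM in Kit positive and 0, 12.9 and 229 CPM in Kit negative cells (difference 1.51). Mycn, a MYC family gene of cycling stem cells, had 2.73, 24.5 and 175 CPM in Kit positive and 0, 23.6 and 127 CPM in Kit negative cells (difference 1.28). It was detected in all 19 Kit positive and 19 of 26 Kit negative cells. Taf4b, a germ cell subunit of the general transcription machinery that stem cell upkeep needs, was the member lower by at least 1. It had 1.11, 52.1 and 362 CPM in Kit positive and 0, 193 and 535 CPM in Kit negative cells, a difference of -1.09. All 4 genes overlapped between the groups.

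For Lhx1, Mycn, Gfra1 and Ret the sign differed between the deposited clusters. Within cluster II the self-renewal median was 0.30 and within cluster III -0.04. Lhx1 differed by -0.35 in cluster II and 1.41 in cluster III, and Mycn by 2.21 and -0.28. Etv5 kept its sign, with 0.32 and 1.51, and Taf4b likewise with -0.51 and -0.77. The GDNF receptor pair was spread widely. Gfra1, the GDNF-binding subunit that marks stem cells, had 0, 89.9 and 344 CPM in Kit positive cells, against 0, 42.8 and 358 CPM in Kit negative cells. Gfra1 was detected in 17 of 19 Kit positive and 20 of 26 Kit negative cells, so Kit and Gfra1 transcripts occurred together in most Kit positive cells. The Gfra1 difference was 0.54 over all cells, 0.45 within cluster II and -1.06 within cluster III. Ret, the signalling subunit, differed by 0.84, at a median of 322 CPM in Kit positive and 269 CPM in Kit negative cells, but by -0.64 within cluster II and 2.37 within cluster III.

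Factors known to hold Kit back were present in both groups. Zbtb16 had 1.82, 281 and 1010.2 CPM in Kit positive cells, against 1.47, 281 and 659 CPM in Kit negative cells, a difference of -0.56. That sign turned between clusters, with -0.27 in cluster II and 1.00 in cluster III. Nanos2 was detected in 3 of 19 Kit positive cells (15.8%, 3.38% to 39.6%) and 7 of 26 Kit negative cells (26.9%, 11.6% to 47.8%). By Kit level, 0 of the 10 cells with at least 100 Kit counts and 3 of the other 9 Kit positive cells had Nanos2 detected. Over the list of known Kit regulators, activators and repressors together, 1 of 13 members was higher by at least 1, 0 were lower and the median was -0.24. The one higher was Gata2, a transcription factor that activates Kit in mast cells and blood progenitors. Gata2 was detected in 9 of 19 Kit positive and 7 of 26 Kit negative cells, at up to 97.9 CPM in Kit positive and 222 CPM in Kit negative cells, and differed by 1.01. Ldb1, a cofactor of GATA factors, differed by -0.91, and Cnot1, the scaffold of the mRNA deadenylase complex that NANOS2 recruits, by -0.51. The chromosomal neighbours of Kit, which include Pdgfra and Clock, numbered 8 members, of which 0 were higher and 1, Tmem165, was lower (-1.02).

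Genes of the pathway downstream of KIT differed in both directions. Of 39 members, 4 were higher by at least 1 and 2 lower, with a median of 0.27, beside 5.34% and 2.33% of all genes. With so few members past 1, these counts are no result about the list. Braf, a kinase that links RAS to the MAP kinases, had near 0, 4.46 and 111 CPM in Kit positive cells, against 0, near 0 and 66 CPM in Kit negative cells. Here "near 0" is an estimate far below 1 count. It was detected in 14 of 19 Kit positive cells (73.7%, 48.8% to 90.9%) and 8 of 26 Kit negative cells (30.8%, 14.3% to 51.8%), and differed by 1.61. The adaptor Shc1 had 5.04, 106 and 255 CPM in Kit positive and 0, 28.9 and 423 CPM in Kit negative cells (difference 1.20). Its summed level ran the other way, at 76.6 CPM in Kit positive and 90.2 CPM in Kit negative cells, where 1 cell gave 24.4% of the sum. The other higher members were Map2k1 (1.06), the kinase below BRAF, and Socs6 (1.12), a suppressor of KIT signalling. On the lower side, Sh2b3, an adaptor that restrains KIT in mouse blood cells, was detected in 7 of 19 Kit positive and 14 of 26 Kit negative cells, and 6 Kit negative cells exceeded every Kit positive cell (difference -1.23). The transcription factor Stat3 differed by -1.01. Pik3r1, the regulatory subunit through which KIT engages PI3 kinase, differed by 0.41.

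Among 15 other receptor tyrosine kinases, 1, Erbb3, was higher by at least 1 and 0 were lower. Erbb3, a receptor for neuregulins, was detected in 11 of 19 Kit positive cells (57.9%, 33.5% to 79.7%) and 5 of 26 Kit negative cells (19.2%, 6.55% to 39.4%), and differed by 1.87. Its level was low in most cells, with medians of 1.41 CPM in Kit positive and 0 CPM in Kit negative cells, and 1 Kit positive cell exceeded the highest Kit negative cell. Among genes that respond to GDNF or FGF, 3 of 15 were higher, Etv5, Lhx1 and Spred2, and 1, Spred1, was lower. The shares of all genes were 5.34% and 2.33%. Spred1 and Spred2 both encode inhibitors of RAS to MAP kinase signalling, and they differed in opposite directions, by -1.06 and 1.24. Spred2 itself turned with the cluster, at 1.62 in cluster II and -1.92 in cluster III.

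Meiotic genes other than Stra8 gave little. Of 23 members, 2 were higher by at least 1, 0 were lower and the median was 0.07. The second was Hspa2, a testis heat shock protein, with 0.328, 25.7 and 133 CPM in Kit positive and near 0, 8.93 and 150.4 CPM in Kit negative cells (difference 1.36). Dmc1, the meiotic recombinase, differed by -0.82, at a median of 16.4 CPM in Kit positive and 29.5 CPM in Kit negative cells. Cell cycle lists also had few members past 1, too few to set against the 5.34% and 2.33% of all genes. In S phase 0 of 35 genes were higher and 1, the exonuclease Exo1 (-1.12), was lower. In G2 and M phase 1 of 39, the chromatin protein gene Cdca2 (1.00), was higher and 1, the kinesin gene Kif2c (-1.13), was lower. In G1 control 1 of 18, the CDK inhibitor Cdkn2d (1.09), was higher and 0 were lower. Exo1 and Cdca2 changed sign within cluster III.

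Of 21 survival and death genes, 2 were higher by at least 1 and 0 lower, beside 5.34% and 2.33% of all genes. Bik, which encodes a BH3-only protein that promotes cell death, had 0, 37.2 and 84.1 CPM in Kit positive cells, against 0, 6.81 and 80.1 CPM in Kit negative cells. The ranges were alike but the cells lay differently within them. The Kit negative median was exceeded by 17 of 19 Kit positive cells, and the Kit positive median by 3 of 26 Kit negative cells (difference 1.59). Bcl2l1, which encodes the death inhibitor BCL-XL, differed by 1.24 over all cells, by -0.45 within cluster II and by 3.05 within cluster III. Among 19 surface markers of spermatogonia, Gpr125 and Cd47 were higher by at least 1 and 0 were lower. Gpr125, an adhesion receptor used to enrich spermatogonial progenitors in the mouse, had medians of 18.6 CPM in Kit positive and 0.817 CPM in Kit negative cells (difference 1.33). Cd47, which signals to phagocytes to spare a cell, had medians of 22.8 CPM in Kit positive and 8.43 CPM in Kit negative cells (difference 1.30). Plaur, which encodes CD87, was detected in 9 of 19 Kit positive and 11 of 26 Kit negative cells, at medians of 0.6 CPM in Kit positive and 0.612 CPM in Kit negative cells and a difference of 0.19.

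Over all cells, germ cell identity and pluripotency genes had medians below that of all genes. All genes had a median of 0.0987, and 5.34% of them were higher and 2.33% lower by at least 1. The counts of each list in this paragraph rest on few members and are to be read beside those shares. Of 22 germ cell genes, 0 were higher and 0 lower by at least 1. Above 0 lay 3 of them, and the share of all genes above 0 is not given. The germ cell genes had a median of -0.25. The median was -0.18 within cluster II and 0.18 within cluster III, and -0.0022 in the mean over both. Ddx4 and Dazl, the general germ cell markers, differed by -0.19 and -0.01. Of 18 pluripotency genes, 1, the nuclear receptor Nr5a2 (1.18), was higher, 1, Dppa2 (-1.18), was lower and the median was -0.21. Pou5f1, whose regulatory sequence drives the fluorescence the cells were sorted on, had 0, 2.99 and 50.5 CPM in Kit positive cells, against 0, 7.71 and 74.7 CPM in Kit negative cells (difference -0.36). Pou5f1 was detected in 15 of 19 Kit positive and 20 of 26 Kit negative cells. In the progenitor list 0 of 7 members passed 1 in either direction. The RNA-binding protein gene Lin28 (now Lin28a) differed by -0.81 and Nanos3 by -0.75. DNA methylation genes held 1 higher, the thymine glycosylase Tdg (1.01), and 1 lower, the related glycosylase Mbd4 (-1.05), of 16. The MYC and MAX network held Mycn on the higher side and Pcgf6 (-1.12), a Polycomb subunit that represses germ cell genes in mouse embryonic stem cells, on the lower side, of 12.

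The largest differences lay outside the lists. They are given for genes detected in at least 50% of cells and with the same sign in clusters II and III, the only clusters with at least 3 cells in both groups, so the equal signs are part of the choice. Galnt11, an enzyme that starts O-linked glycosylation, had 1.41, 50.5 and 231 CPM in Kit positive cells, against 0, 3.32 and 326 CPM in Kit negative cells. The Kit negative median was exceeded by 18 of 19 Kit positive cells and the Kit positive median by 2 of 26 Kit negative cells, while the highest cell of all was Kit negative (difference 2.88). Rhbdf2, which encodes iRhom2, the partner that brings the protease ADAM17 to the cell surface, had near 0, 59 and 343 CPM in Kit positive and 0, 0.714 and 319.5 CPM in Kit negative cells (difference 2.63). It was detected in 17 of 19 Kit positive cells (89.5%, 66.9% to 98.7%) and 11 of 26 Kit negative cells (42.3%, 23.4% to 63.1%). Spata13, a guanine nucleotide exchange factor, had 0.438, 29.4 and 254 CPM in Kit positive and near 0, 2.15 and 94.4 CPM in Kit negative cells, and 6 Kit positive cells exceeded every Kit negative cell (difference 2.30). The other 7 were Plekhh1 (2.86), the cytokine signal suppressor Socs5 (2.69), Chid1 (2.46), the endoplasmic reticulum stress kinase Eif2ak3 (2.39), the cytoskeletal protein gene Specc1l (2.34), the mitotic kinase Nek9 (2.27) and the endocytosis gene Hip1r (2.21). Socs5 was not tied to high Kit, with a median of 2.49 CPM in the 10 cells with at least 100 Kit counts and 136 CPM in the other 9 Kit positive cells.

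On the lower side Nut (now Nutm1), a gene known from germ cells of the testis, led. It had 0, 1.78 and 42 CPM in Kit positive cells, against 0, 60 and 422 CPM in Kit negative cells. The Kit negative median was above all 19 Kit positive cells, and 15 of 26 Kit negative cells exceeded every Kit positive cell, yet 13 Kit positive cells had it detected (difference -2.94). The gene AK129128 had near 0, 6.47 and 213 CPM in Kit positive and 0, 62.5 and 656 CPM in Kit negative cells (difference -2.25). Gemin4, of the complex that assembles splicing particles, had 0, 4.87 and 158 CPM in Kit positive and 0, 50.7 and 768 CPM in Kit negative cells (difference -2.0). The other 7 were Smap1l (-1.97), the actin-regulated coactivator gene Mkl1 (-1.94), 2310047O13Rik (-1.93), the aminopeptidase gene Arts1 (-1.88), Es2el (-1.86), the centriole gene Cep152 (-1.85) and the polycystin gene Pkd1 (-1.81). Summed counts of several leading genes rested on 1 cell. A single Kit positive cell gave 62.4% of the Kit positive sum of 2310047O13Rik and 61% of that of Pkd1. A single Kit negative cell gave 72% of the Kit negative sum of Chid1, 68.8% for Eif2ak3, 62% for Galnt11 and 60.4% for Socs5.

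**Figure D4:**
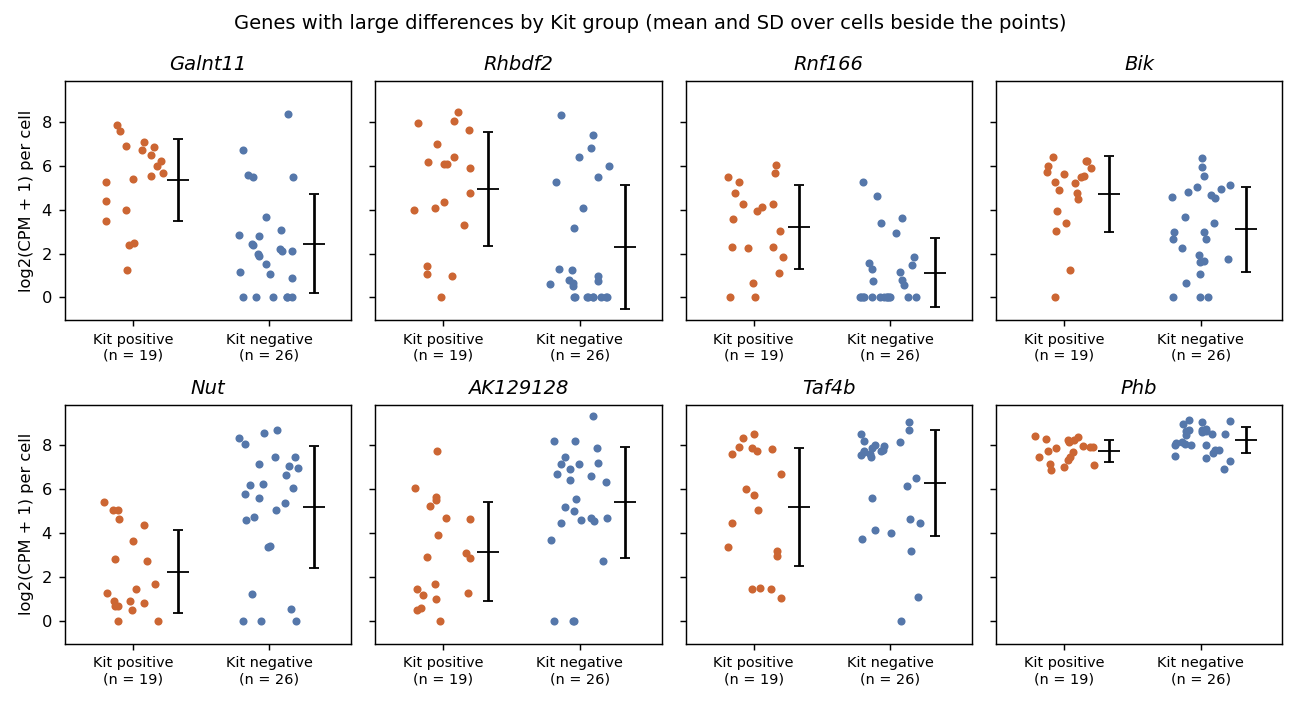
Level per cell as log2(CPM + 1) of 8 genes in Kit positive (n = 19) and Kit negative (n = 26) cells, with mean and SD over cells beside the points. Galnt11, Rhbdf2, Rnf166 and Bik lie higher in Kit positive cells, and Nut, AK129128, Taf4b and Phb lie lower. All 8 overlap, and Phb has the narrowest spread.

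Over all 71 cells and 10098 genes detected in at least 50% of them, the genes that ran most with Kit CPM had low coefficients. The highest Spearman values were 0.46 for Galnt11, 0.42 for Rhbdf2 and 0.40 for Tpp1, a lysosomal peptidase, followed by Specc1l and Rnf166, each at 0.39. Efna5, 4930403N07Rik and Gm1008 came next, each at 0.38. The lowest were -0.42 for LOC100043169, -0.39 for Phb, -0.39 for Nut and -0.36 for the heparan sulfate enzyme gene Hs3st1. The cells share depth and capture, and values of this size are given as a description. Rnf166, which encodes a ubiquitin ligase, was detected in 16 of 19 Kit positive cells (84.2%, 60.4% to 96.6%) and 10 of 26 Kit negative cells (38.5%, 20.2% to 59.4%), at a median of 11 CPM in Kit positive and 0.242 CPM in Kit negative cells. Phb, prohibitin of the inner mitochondrial membrane, differed little in size but was even from cell to cell. Phb had 116, 238 and 349 CPM in Kit positive cells, against 121, 316 and 563 CPM in Kit negative cells. Its mean log2 level was 7.75 with an SD of 0.49 in Kit positive and 8.26 with an SD of 0.60 in Kit negative cells, and 2 of 19 Kit positive cells exceeded the Kit negative median.

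Set within 1 cluster at a time, fewer cells entered and more genes passed 1 in both directions. Cluster II, with 12 cells of each group, gave 1069 higher (8.32%) and 704 lower (5.48%), and cluster III, with 4 Kit positive and 9 Kit negative cells, gave 2211 higher (17.2%) and 1624 lower (12.6%). Of the 686 genes higher over all cells, 575 were also higher in both clusters by any amount. Of the 299 lower genes, 243 were lower in both. These clusters hold most cells of both groups, so equal signs here and below are in part built in. The same share over all genes is not given, so these counts are no measure of agreement between the clusters. By at least 1 in both clusters, 290 genes were higher and 130 lower. Stra8 differed by 2.03 in cluster II and 1.08 in cluster III. In cluster II it was detected in 8 of 12 Kit positive and 4 of 12 Kit negative cells. Erbb3 (2.10 and 1.79), Braf (1.02 and 3.03) and Bik (1.42 and 0.66) also kept their sign. Sohlh1, with a difference of only 0.33 over all cells, differed by 1.29 and 2.29 within the clusters, and in cluster II its median was 12.5 CPM in Kit positive and 2.85 CPM in Kit negative cells. Sohlh2 differed by 0.34 in cluster II and -1.20 in cluster III. Opposite signs in cluster II and cluster III were also seen for Ccnd2 (0.14 and -0.33), Dnmt3a (0.06 and -1.86), Dnmt3b (-0.40 and 0.96) and Rara (1.28 and -0.31). The same held for Sh2b3 (-2.05 and 0.16), Dmc1 (-1.64 and 0.45), Pou5f1 (-0.48 and 1.21) and Tpp1 (1.52 and -0.24).

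**Figure D5:**
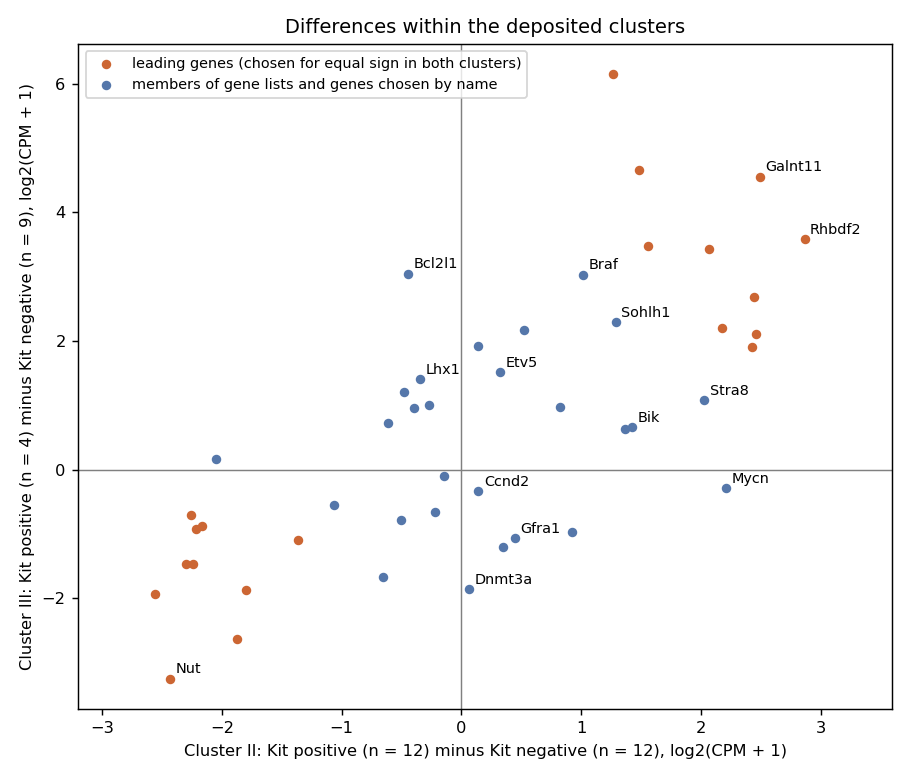
Kit positive minus Kit negative difference in mean log2(CPM + 1) within cluster II (horizontal, 12 and 12 cells) and within cluster III (vertical, 4 and 9 cells). Orange points are the 20 leading genes, chosen to have equal signs, and blue points are members of 4 gene lists and genes chosen by name. Stra8, Sohlh1, Etv5, Braf and Bik lie in the upper right, while Bcl2l1, Lhx1 and Mycn differ in sign between the clusters.

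Against the 26 Kit negative cells, the 10 cells with at least 100 Kit counts gave 1081 higher (8.41%) and 648 lower (5.04%) genes, a comparison that keeps every Kit negative cell. Among cells with position codes D to H alone, 14 Kit positive against 16 Kit negative cells, 844 genes were higher (6.57%) and 756 lower (5.88%). Stra8 differed by 1.15 in the 10 cells of highest Kit, Etv5 by 2.69, Galnt11 by 2.90 and Nut by -3.60. Within codes D to H the same genes differed by 1.79, 1.53, 2.60 and -4.07. Dnmt3b stood at -1.52 for the cells of highest Kit and -1.25 within codes D to H, against -0.53 over all cells.

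Markers of other KIT-bearing or testis cell types were in part absent from both groups. For mast cells, 7 of 9 markers, among them Cpa3, Fcer1a and Tpsab1, were detected in 0 cells, and the summed level ran 0, 6.16 and 97.9 CPM in Kit positive cells, against 0, 1.03 and 222 CPM in Kit negative cells, and its highest cell in each group was the highest for Gata2. For melanocytes, Dct and Mlana of 8 markers were detected in 0 cells, and the sum ran 136, 445 and 1233 CPM in Kit positive and 36, 367 and 1169 CPM in Kit negative cells. Tyr, the melanin-making tyrosinase, carried most of it, at a median of 441 CPM in Kit positive and 364 CPM in Kit negative cells. For Leydig cells 8 of 11 markers, among them Cyp11a1, Cyp17a1 and Insl3, were detected in 0 cells, and the sum ran 3.15, 6.98 and 122 CPM in Kit positive and 0.352, 6.89 and 45.9 CPM in Kit negative cells. For Sertoli cells Amh, Cldn11 and Fshr were detected in 0 cells and the sum ran 26.9, 129.9 and 430.2 CPM in Kit positive and 0.000334, 145 and 338 CPM in Kit negative cells. For macrophages and leukocytes, 6 of 15 markers, among them Tyrobp and C1qa, were detected in 0 cells, and the sum ran 7.66, 35.8 and 77.2 CPM in Kit positive and 3.25, 36.3 and 204 CPM in Kit negative cells. For endothelium Emcn and Esam1 were detected in 0 cells and the sum ran 0.347, 17.9 and 150.5 CPM in Kit positive and 0, 18.1 and 190.0 CPM in Kit negative cells. For peritubular myoid cells, with Smoc2 the only marker that entered, the sum ran 3.82, 79.9 and 312 CPM in Kit positive and near 0, 107 and 346 CPM in Kit negative cells. For erythroid cells, with no marker that entered, it reached 5.50 CPM in Kit positive and 9.99 CPM in Kit negative cells. Every sum overlapped between the groups, and the part of these markers in the results above was not tested.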

How the data were processed

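Single-cell values are expected counts per gene, which the authors deposited. They were made with Trim Galore and Salmon on mm9 per the submitters' processing notes. Versions and the annotation were not given in the sources used here. Other samples of the series were not used here. The table has 27128 gene names. Of these, 22 had become spreadsheet dates and were dropped, with up to 0.609% of the counts in a cell.

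CPM was computed from each column total with Python 3.11.15, pandas 2.3.3 and numpy 2.4.6, and means of log2(CPM + 1) were compared over genes detected (expected count of at least 1) in at least 25% of the 45 cells. Intervals came from scipy 1.17.1 and TMM scaling from edgeR 4.0.16 in R 4.3.3. With 1 sample a group, no test was run. Reads carry no molecular identifiers, so Poisson intervals take amplified copies as separate counts and are too narrow. Intervals on shares of cells cover counting error only. No cell was removed and doublets were not called. The counts ran from 182584 to 6820422 per cell. The code for the difference and the calls was tried on simulated counts. Those had changes larger than the cut, in genes of high count, with less spread between cells than the data. The trial checks the code only and cannot say how reliable the calls are.

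Of 542 list symbols, 504 matched directly, 33 by older symbols in RefSeq's table of mouse genes and 5 did not. The members and lists were chosen with earlier results of these data known. Genes named in the text are the 10 largest differences in each direction (detected in at least 50% of cells, same sign in clusters II and III), up to 4 members of each list, 14 chosen by name, and the 8 highest and 4 lowest Spearman coefficients with Kit. Map2k1, Stat3, Pik3r1, Ddx4, Dazl, Jun and Egr1 were added after their values were seen. Alternatives covered depth, Kit thresholds, filter, pseudocount, medians, scaling and clusters. The threshold of 100 Kit counts and the position codes were chosen after seeing the data.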

Additional observations from a re-analysis of the deposited data

How the results depend on the processing

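No paired analysis was possible because the result comes from no test. Over all cells 686 genes were higher and 299 lower by at least 1, with 22 and 10 list members. By the number of genes higher and lower, then list members higher and lower, medians in place of means gave 1370, 728, 42 and 22, a pseudocount of 10 gave 73, 27, 1 and 0, cluster II gave 1069, 704, 36 and 17, and cluster III gave 2211, 1624, 54 and 66. The added threshold of 100 Kit counts gave 1081, 648, 42 and 19. A Kit threshold of 1 gave 362 genes higher and list members of 10 and 6. Thinned cells gave 470 genes and 19 list members lower, the mean over clusters 585 and 21, and the added position codes D to H 756 and 22. Without cluster I, 35 list members were higher and 6 lower. The other counts lay within 1.5 times. The cause of these moves was not tested.

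Beside the 20 leading genes, whose choice fixed their sign in clusters II and III, 36 named genes passed 1. Of these, 26 were not reversed under any of 18 alternatives, where a difference that vanished did not count as reversed. Every alternative reuses cells of the main comparison, so equal signs are in part built in. The alternatives that only change the filter leave the difference of each gene as it was, so they could not reverse a sign. Reversed were Lhx1 (-0.35) and Bcl2l1 (-0.45) in cluster II, and Mycn (-0.28), Sh2b3 (0.16), Spred2 (-1.92), Exo1 (0.059), Cdca2 (-0.35) and Tpp1 (-0.24) in cluster III. Spred2 (-0.15) and Cdca2 (-0.041) reversed in the mean over clusters, Kif2c (0.0012) at 100 Kit counts and Spred1 (0.16) in codes D to H. The self-renewal median ran from -0.04 to 0.62. Of 25 list medians, 4 had the same sign under every alternative that gave a value. The share of genes past 1 that were higher was 52.8% in codes D to H. Depth limits genes near 1 count, and unnamed animals leave no replicate spread.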

Other observations

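The 26 cells between the thresholds did not always lie between the groups. Stra8 had a median of 9.25 CPM in Kit positive cells, 2.88 CPM in the cells in between and 0.704 CPM in Kit negative cells, and was detected in 14 of 19, 16 of 26 and 13 of 26. Galnt11 stood at 50.5, 7.19 and 3.32 CPM in the same order, Rhbdf2 at 59, 8.55 and 0.714 CPM and Nut at 1.78, 20.5 and 60 CPM. Outside that order, Mycn had 24.5, 65.2 and 23.6 CPM, Taf4b 52.1, 31.3 and 193 CPM and Etv5 370.1, 189 and 316 CPM. Gemin4 was highest in between, at 103 CPM, with 4.87 CPM in Kit positive and 50.7 CPM in Kit negative cells.

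Metabolic and stress gene groups had few members past 1, too few to set against the 5.34% and 2.33% of all genes. Of 26 oxidative phosphorylation genes 0 passed 1 in either direction, with a median of 0.14. Of 18 glycolysis genes 1 was higher, the glucose transporter gene Slc2a3 (1.18), at medians of 6.06 CPM in Kit positive and 1.70 CPM in Kit negative cells. Of 11 immediate early genes, which respond within minutes to stimuli and to handling, 1 was higher, Ier2 (1.34). Their median was -0.13 over all cells, 0.34 within cluster II and -1.15 within cluster III. For the cells with at least 100 Kit counts it was 0.41. Fos differed by 0.73, Jun by 0.11 and Egr1 by -0.22.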
